A study of Mus musculus with 14 samples.

Results

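The genes described here make and control cyclic AMP (cAMP) in the liver: 7 adenylyl cyclases (Adcy1, Adcy3, Adcy4, Adcy5, Adcy6, Adcy7 and Adcy9), the glucagon receptor Gcgr and the beta-3 adrenergic receptor Adrb3. They were selected on their measured difference between the diets and on their place in the pathway, taken by symbol, and all 9 were present among 37681 genes and passed the filter on low counts. RNA from liver was sequenced in 7 mice fed a high fat and high sucrose diet (HFHS) and in 7 mice fed a low fat and low sucrose diet (LFLS). A library was made from each mouse. Adcy1 (ENSMUSG00000020431) and Gcgr (ENSMUSG00000025127) lie on chromosome 11, Adcy7 (ENSMUSG00000031659) and Adrb3 (ENSMUSG00000031489) on 8, Adcy5 (ENSMUSG00000022840) and Adcy9 (ENSMUSG00000005580) on 16, Adcy3 (ENSMUSG00000020654) on 12, Adcy4 (ENSMUSG00000022220) on 14 and Adcy6 (ENSMUSG00000022994) on 15. No genotype or drug treatment is named in the labels, and the sources used here do not state strain, sex, age or how long the mice were fed. Sample titles carry a first number, 1 for 4 mice and 2 for 3 mice of each diet, whose meaning the labels do not give. Libraries held 18.2 to 45.4 M counts on HFHS and 18.3 to 52.8 M on LFLS (M, mega). The 12 hepatocyte markers summed to 81352 to 123181 CPM (counts scaled to a common library size with TMM) in HFHS livers and 96125 to 143611 CPM in LFLS livers, with none at the lowest count. In such bulk tissue, fewer cells of a type and less RNA per cell cannot be told apart.

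Adenylyl cyclases are membrane enzymes that turn ATP into cAMP, the second messenger through which glucagon and adrenaline reach the liver cell. A receptor such as Gcgr activates the stimulatory G protein, which switches the cyclase on, and cAMP then releases the catalytic subunits of protein kinase A, which phosphorylate enzymes of glycogen and glucose metabolism and the transcription factor CREB. In the fasted liver this pathway turns on the genes of gluconeogenesis and amino acid breakdown. The membrane cyclases differ in what else they answer to: some are stimulated by calcium and calmodulin (Adcy1, Adcy3), some by G protein beta-gamma subunits (Adcy4, Adcy7), some are inhibited by calcium and by inhibitory G proteins (Adcy5, Adcy6), and Adcy9 responds poorly to the plant compound forskolin.

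The RefSeq promoter table (build GRCm38.p6) held 10 promoters of 7 of these genes, all but Adcy6 and Adrb3. The 250 bases before the RefSeq start are shown for Adcy1, the gene with the largest difference between diets, at chr11:7063183-7063432 on the plus strand, and for Adcy4, at chr14:55784073-55784322 on the minus strand, and Adcy5, at chr16:35154614-35154863 on the plus strand. Adcy4 and Adcy5 are set beside Adcy1 because they varied together from library to library while Adcy1 varied the other way. They read 5′ to 3′, and capitals mark the E-box CACGTG and the GC box GGGCGG on either strand, so a GC box on the minus strand reads CCGCCC.
Adcy1: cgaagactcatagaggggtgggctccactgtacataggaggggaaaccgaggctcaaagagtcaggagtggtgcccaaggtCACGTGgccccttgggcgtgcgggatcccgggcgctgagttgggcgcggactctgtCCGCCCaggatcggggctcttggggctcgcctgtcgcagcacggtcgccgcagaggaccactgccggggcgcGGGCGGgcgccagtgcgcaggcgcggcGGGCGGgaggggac
Adcy4: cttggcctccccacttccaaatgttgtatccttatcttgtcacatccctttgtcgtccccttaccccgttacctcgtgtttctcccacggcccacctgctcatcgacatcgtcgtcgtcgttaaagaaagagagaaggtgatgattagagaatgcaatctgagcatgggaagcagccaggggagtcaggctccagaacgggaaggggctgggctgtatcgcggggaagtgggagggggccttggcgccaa
Adcy5: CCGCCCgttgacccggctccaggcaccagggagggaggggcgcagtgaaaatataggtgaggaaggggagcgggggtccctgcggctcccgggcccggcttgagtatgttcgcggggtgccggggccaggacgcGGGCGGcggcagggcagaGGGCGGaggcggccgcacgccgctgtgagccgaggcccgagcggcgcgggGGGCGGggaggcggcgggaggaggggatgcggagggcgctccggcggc
The Adcy1 promoter held 1 E-box and 3 GC boxes, the Adcy5 promoter 4 GC boxes and the Adcy4 promoter neither motif. Searched on both strands, GGGCGG was present in 6 of the 10 promoters and in 32.74% of all 32851 promoters in the table, and CACGTG in 1 of 10 and in 6.02%. The full cAMP response element TGACGTCA was in 0 of 10 and in 1.55% of all, and its core TGACG, which the full element contains, was in 2 of 10, those of Adcy7 and Adcy9, and in 17.77%. These are matches of letters in a window and no binding was measured.

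Per kilobase of exon, the level of Gcgr stood far above every cyclase, and Adcy6 and Adcy9 were the main cyclase transcripts. Gcgr averaged 84.2 ± 8.39 CPM per kb in HFHS livers and 94.8 ± 27.2 in LFLS livers (SD, n = 7 each). The levels of Adcy6 were 9.30 ± 1.03 CPM per kb on HFHS and 9.20 ± 3.02 on LFLS, and those of Adcy9 5.93 ± 0.355 on HFHS and 7.29 ± 2.19 on LFLS. Gcgr exceeded Adcy6 by a ratio of 7.31 to 11.8 per kb in the 14 livers. Below them came Adrb3 with 1.46 ± 0.761 CPM per kb on HFHS and 3.26 ± 1.17 on LFLS, then Adcy4 (1.06 on HFHS, 1.38 on LFLS), Adcy7 (0.916 on HFHS, 0.906 on LFLS), Adcy3 (0.500 on HFHS, 0.534 on LFLS) and Adcy5 (0.329 on HFHS, 0.453 on LFLS). Adcy1 was the lowest, at 0.0307 ± 0.0132 CPM per kb on HFHS and 0.172 ± 0.111 on LFLS.

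The order of the mean levels per kb was the same on both diets, but several neighbours were not separated by the spread between mice. In HFHS livers the ranges of Gcgr, Adcy6 and Adcy9 did not overlap with their next neighbour, nor did that of Adcy5 with Adcy1, while Adrb3 was above Adcy4 in only 3 of 7 mice. In LFLS livers the range of Gcgr was clear of Adcy6 and all other neighbours overlapped, although Adcy6 exceeded Adcy9 within each of the 7 mice. Adcy2, Adcy8 and Adcy10, the cyclases outside the list, did not pass the filter: Adcy2 had 3 to 19 counts on HFHS and 8 to 23 on LFLS, Adcy8 had 2 to 17 on HFHS and 2 to 12 on LFLS, and Adcy10, the soluble cyclase, 5 to 38 on HFHS and 4 to 11 on LFLS. A deposited count was never below 1, so a count of 1 may stand for an undetected gene.

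**Figure D1:**
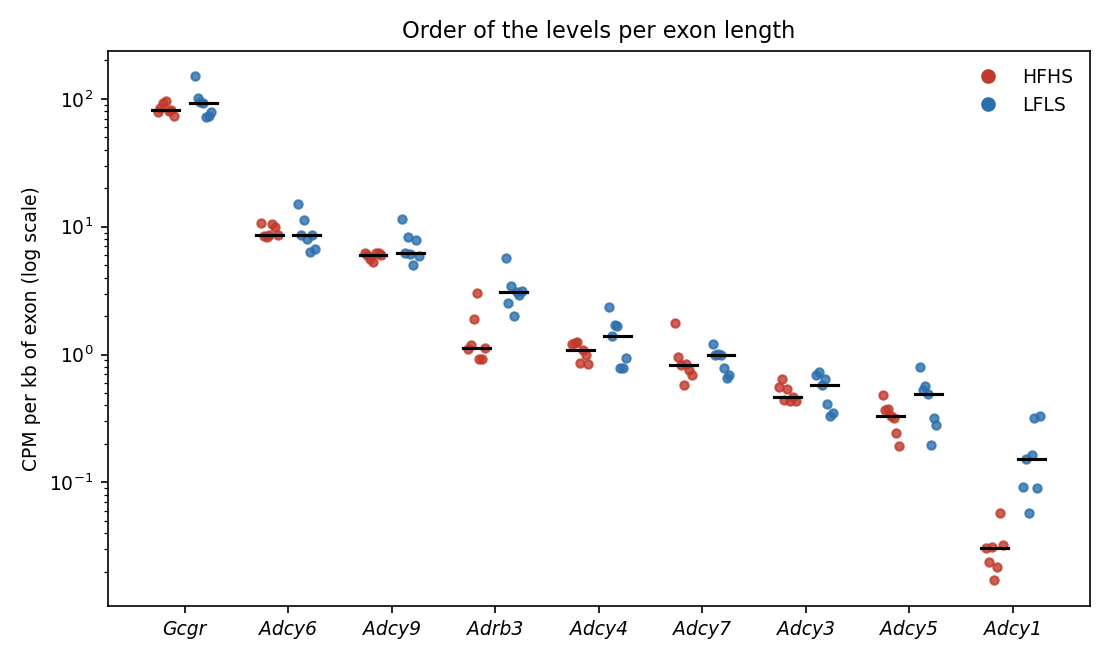
Level of each gene in CPM per kb of exon on a log scale, HFHS (red) left of LFLS (blue), 1 point per mouse, with the median as a bar. Gcgr lies near 100 and Adcy6 near 10 CPM per kb, and Adcy1 has the lowest median on either diet.

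The comparison of the diets used edgeR's quasi-likelihood test on all 17223 genes that passed the filter. A gene was called when its Benjamini-Hochberg adjusted p was under 0.05, which held for 484 genes or 2.81% of those tested, 236 higher and 248 lower on HFHS. With libraries scaled to their totals alone, 71.4% of calls were higher on HFHS, against 48.8% with the TMM scaling used here. Of the 9 genes, 2 were called, Adcy1 and Adrb3, both lower on HFHS, where 1.44% of all tested genes were called lower. The diets overlapped in all 9, and genes whose diets did not overlap made up 1.65% of those tested. By estimate 7 of 9 were lower on HFHS, with a median log2 fold change of -0.30, against -0.01 over all tested genes. Because the genes were listed with this difference known, these values and calls describe them and are no independent test. Their edgeR p-values of that difference are not printed here.

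Gcgr, the receptor through which glucagon raises hepatic glucose output, was not called between diets. It ranged from 191 to 254 CPM with a median of 214 in HFHS livers, and from 190 to 396 with a median of 243 in LFLS livers. The diets overlapped, and the highest value belonged to the mouse LFLS 1, with the next at 266 CPM. The log2 fold change was -0.17 ± 0.15 (SE), and it was 0.07 ± 0.09 among mice of title number 2 and -0.29 ± 0.17 among those of title number 1.

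Adrb3, best known as the receptor through which noradrenaline drives lipolysis and heat production in fat cells, was lower on HFHS. Its lowest, median and highest values were 3.12, 3.82 and 10.2 CPM in HFHS livers and 6.81, 10.4 and 19.2 CPM in LFLS livers. The mice overlapped through HFHS 4 alone, which had 10.2 CPM, while the other 6 HFHS livers lay below every LFLS liver. The mean was 4.92 ± 2.57 CPM on HFHS and 11.0 ± 3.95 CPM on LFLS (SD, n = 7 each), a log2 fold change of -1.16 ± 0.28. It was lower on HFHS by 1.61 ± 0.13 among mice of title number 2 and by 0.91 ± 0.39 among those of title number 1, both on the log2 scale.

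The call of Adrb3 rested on many of the libraries. It held in 4 of 14 fits that each left out 1 mouse, and was lost without LFLS 1, LFLS 2, LFLS 3, LFLS 5, LFLS 7, HFHS 1, HFHS 2, HFHS 5, HFHS 6 or HFHS 7, with log2 fold changes between -1.44 and -0.97 over the 14 fits. Of 8 adipocyte markers 5 stayed under 1 CPM in every liver, Adipoq, Lep and Ucp1 among them: Adipoq, an adipocyte hormone, had 5 to 15 counts in HFHS livers and 1 to 37 in LFLS livers, Lep had 2 to 7 on HFHS and 1 to 2 on LFLS, and Ucp1, the uncoupling protein of brown fat, had 1 to 2 on HFHS and 1 to 14 on LFLS. The 8 markers summed to 21.6 to 35.7 CPM on HFHS and 14.9 to 38.3 CPM on LFLS. Nearly all of it came from the other 3, Cfd, Pnpla3 and Slc2a4. Cfd had 3.17 to 15.8 CPM on HFHS and 1.51 to 9.17 on LFLS. Pnpla3 had 9.98 to 22.4 CPM on HFHS and 10.8 to 26.6 on LFLS, and Slc2a4 reached at most 2.53 CPM, on LFLS. Of the 4 markers tested between diets, 3 were higher and 1 lower on HFHS by estimate, with a median log2 fold change of 0.04. None was called by edgeR, while DESeq2 and limma voom each called 1. None of the 8 was at the lowest count in every library, and their part in the Adrb3 difference was not tested. An antisense gene, Gm45470, shares 24.85% of the exon bases of Adrb3. Since the labels do not state that the libraries kept strand, reads of that antisense gene cannot be told apart from those of Adrb3.

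The balance of the receptors followed from the level of Adrb3. Per kb, Gcgr was 66.3 ± 20.1 times as abundant as Adrb3 in HFHS livers and 30.5 ± 8.77 times in LFLS livers (SD, n = 7 each), with ranges of 32.3 to 87.9 on HFHS and 23.6 to 46.0 on LFLS. The ranges overlapped.

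**Figure D2:**
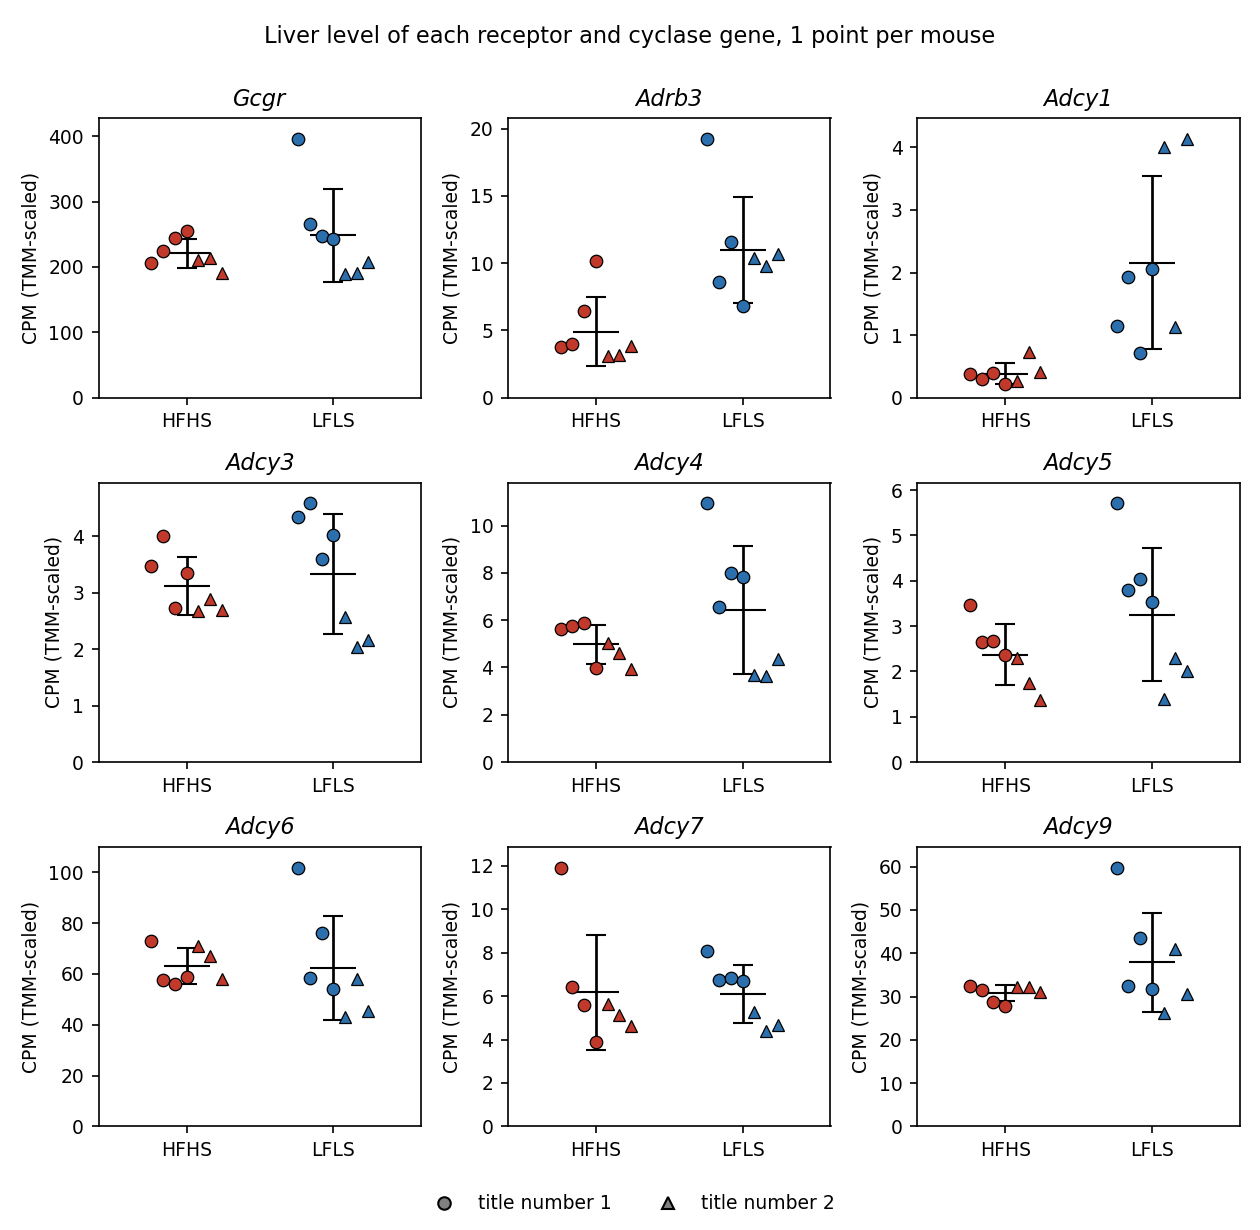
TMM-scaled CPM of each gene in each liver, HFHS (red) left of LFLS (blue), with title number 1 as circles and 2 as triangles and the mean ± SD in black. Only Adcy1 and Adrb3 have most HFHS livers below all LFLS livers, while the other genes overlap widely and LFLS 1 gives the highest value for Gcgr, Adrb3, Adcy4, Adcy5, Adcy6 and Adcy9.

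Among the calcium-stimulated cyclases, Adcy1 had the largest difference between diets. Adcy1, a cyclase best known from neurons, had lowest, median and highest values of 0.214, 0.386 and 0.723 CPM in HFHS livers and 0.715, 1.92 and 4.14 CPM in LFLS livers. All but 1 of the HFHS livers were below every LFLS liver, and the overlap was between HFHS 6 at 0.723 CPM and LFLS 3 at 0.715 CPM. These values rest on 5 to 26 counts per library on HFHS and 28 to 164 on LFLS. The log2 fold change was -2.44 ± 0.41, a level on HFHS of 0.184 times that on LFLS.

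The Adcy1 difference was present in each subset of mice that was examined. It was -2.62 ± 0.55 among mice of title number 2 and -2.10 ± 0.39 among those of title number 1, though the 3 mice per diet of title number 2 alone did not give a call. The call held in 14 of 14 fits that left out 1 mouse, with log2 fold changes of -2.69 to -2.18. Adcy1 was listed with its diet difference known, so these subsets and fits describe that difference and are no independent support. In the authors' deposited table, which reports DESeq, the log2 fold change was -2.52 with an adjusted p of 0.31 for Adcy1, and -1.33 with an adjusted p of 0.64 for Adrb3, so that neither passed 0.05 there.

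Adcy3, the other calcium-stimulated cyclase, best known from olfactory neurons, was not called. It had lowest, median and highest values of 2.68, 2.89 and 4.01 CPM in HFHS livers and 2.05, 3.59 and 4.59 CPM in LFLS livers. The HFHS values lay inside the LFLS range, and the log2 fold change was -0.09 ± 0.19. It was 0.30 ± 0.16 within title number 2 and -0.26 ± 0.16 within title number 1. The centromere gene Cenpo lies on the opposite strand and shares 22.09% of the exon bases of Adcy3, so their reads cannot be told apart there. Cenpo had 10.3 to 12.6 CPM in HFHS livers and 10.7 to 15.2 CPM in LFLS livers, a log2 fold change of -0.16 ± 0.09 that was not called (adjusted p = 0.341).

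Of the cyclases inhibited by calcium, neither Adcy6 nor Adcy5 was called. Adcy6 ranged from 56.1 to 73.1 CPM with a median of 58.9 in HFHS livers and from 43.0 to 102 CPM with a median of 57.9 in LFLS livers. The narrow HFHS range sat inside the LFLS range, and the log2 fold change was 0.02 ± 0.17. It was 0.43 ± 0.13 within title number 2 and -0.22 ± 0.19 within title number 1, so the sign differed between the subsets. An antisense gene, Gm29331, shares 8.92% of the exon bases of Adcy6.

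Adcy5, known as a main cyclase of heart and striatum, had lowest, median and highest values of 1.37, 2.35 and 3.46 CPM in HFHS livers and 1.40, 3.53 and 5.71 CPM in LFLS livers. All 7 HFHS livers were below the LFLS median, yet the ranges overlapped, and the log2 fold change was -0.45 ± 0.28. Within title number 2 it was -0.08 ± 0.26 and within title number 1 it was -0.59 ± 0.20.

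The cyclases stimulated by beta-gamma subunits, Adcy4 and Adcy7, did not pass the test. Adcy4 had lowest, median and highest values of 3.92, 5.03 and 5.90 CPM in HFHS livers and 3.65, 6.56 and 10.9 CPM in LFLS livers. All 7 HFHS livers were below the LFLS median, and the log2 fold change was -0.37 ± 0.23, with 0.22 ± 0.15 within title number 2 and -0.63 ± 0.19 within title number 1.

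Adcy7, a cyclase of blood cells and macrophages, had lowest, median and highest values of 3.89, 5.57 and 11.9 CPM in HFHS livers and 4.41, 6.71 and 8.07 CPM in LFLS livers. Its log2 fold change was 0.02 ± 0.22, and 6 of the 7 HFHS livers were below the LFLS median. The mouse HFHS 1 had the 11.9 CPM, with the next HFHS liver at 6.43. That liver also had the highest HFHS sums for 12 stellate cell and fibroblast markers (871 CPM, with a median of 405 on HFHS and 347 on LFLS), 12 endothelial markers (655 CPM, medians 467 on HFHS and 554 on LFLS), 12 Kupffer cell and macrophage markers (647 CPM, medians 430 on HFHS and 611 on LFLS) and 8 bile duct markers (165 CPM, medians 74.4 on HFHS and 60.7 on LFLS). The part of these cells in the Adcy7 value was not tested.

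Adcy9 had lowest, median and highest values of 27.7, 31.4 and 32.5 CPM in HFHS livers and 26.1, 32.5 and 59.8 CPM in LFLS livers. The medians were close, and the LFLS mean of 37.9 ± 11.4 CPM exceeded the HFHS mean of 30.8 ± 1.84 CPM (SD, n = 7 each) through LFLS 1, LFLS 3 and LFLS 6. The log2 fold change was -0.30 ± 0.15, with -0.03 ± 0.15 within title number 2 and -0.46 ± 0.19 within title number 1.

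With both title numbers pooled, the SD of the CPM between mice was smaller on HFHS than on LFLS for all of the 9 genes but Adcy7. This SD is not scaled to the mean. Adrb3 had 4.92 ± 2.57 CPM on HFHS and 11.0 ± 3.95 CPM on LFLS, so relative to its mean it varied more on HFHS. Within title number 2 the SD was larger on HFHS for Gcgr, Adcy4, Adcy5 and Adcy7, and within title number 1 for Adcy3 and Adcy7. The remaining genes kept the pooled order in each title number. The summed level of the 7 cyclases was 18.1 ± 1.71 CPM per kb on HFHS and 19.9 ± 6.0 on LFLS (SD, n = 7 each), with ranges of 16.3 to 21.1 on HFHS and 13.9 to 31.6 on LFLS. The highest sum came from LFLS 1.

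Within that sum, Adcy6 and Adcy9 together made up 84.4% ± 2.53 in HFHS livers and 82.6% ± 3.30 in LFLS livers. Adcy6 took 51.4% ± 2.22 of it on HFHS and 45.9% ± 1.43 on LFLS (SD, n = 7 each). Its share ranged from 47.9% to 54.0% on HFHS and from 44.1% to 47.7% on LFLS, so the diets did not overlap. The share was 52.8% ± 1.41 on HFHS and 45.2% ± 1.00 on LFLS among mice of title number 2, and 50.4% ± 2.28 on HFHS and 46.4% ± 1.64 on LFLS among those of title number 1. Adcy9 took 32.9% ± 1.84 on HFHS and 36.7% ± 3.07 on LFLS, with overlapping ranges, and Adcy1 took 0.170% ± 0.0709 on HFHS and 1.03% ± 0.863 on LFLS. Shares of a sum are tied to each other, and these were read from genes listed with the diet difference known, so they carry no test.

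**Figure D3:**
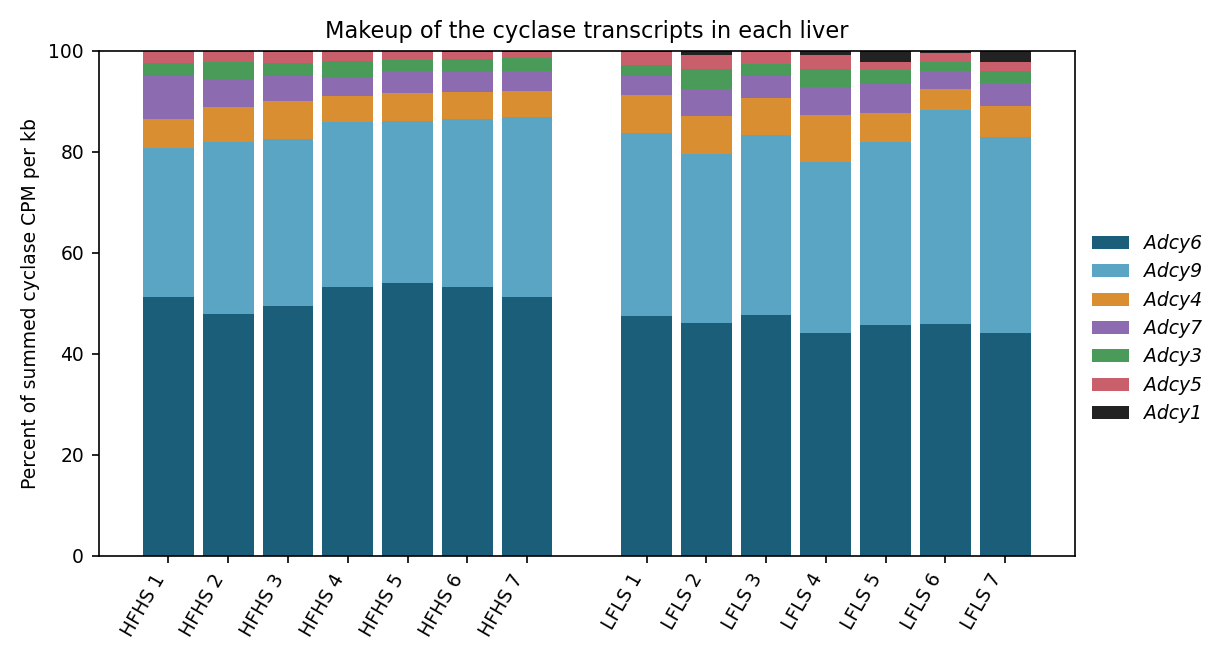
Makeup of the summed cyclase level per kb in each liver, in percent, with the 7 HFHS livers left of the 7 LFLS livers. Adcy6 forms the largest block in each liver, 47.9% to 54.0% on HFHS and 44.1% to 47.7% on LFLS, and Adcy1 is visible in LFLS livers only as a thin top band.

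The difference between title numbers was not used to list the genes and could be tested, with diet as a covariate. It was broad: 4953 genes or 28.8% of those tested were called (edgeR quasi-likelihood, Benjamini-Hochberg), 14.8% lower and 13.9% higher in number 2. Of the 9 genes, 4 were called, all lower in number 2, and 8 of 9 were lower by estimate, with a median log2 fold change of -0.49 against -0.03 over all tested genes. Adcy5 fell in number 2 with a log2 fold change of -0.90 ± 0.18 (adjusted p = 0.00410), Adcy4 with -0.66 ± 0.17 (adjusted p = 0.0141), Adcy3 with -0.58 ± 0.13 (adjusted p = 0.00823) and Gcgr with -0.36 ± 0.12 (adjusted p = 0.0348). The calls of the 3 cyclases held in 14 of 14 fits without 1 mouse, and that of Gcgr in 8, being lost without LFLS 2, LFLS 5, LFLS 6, LFLS 7, HFHS 4 or HFHS 7, with log2 fold changes of -0.40 to -0.26 (edgeR adjusted p of 0.0146 to 0.106).

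By diet, Adcy4 averaged 4.52 ± 0.561 CPM in HFHS livers of number 2 and 5.31 ± 0.888 CPM in those of number 1, while it averaged 3.90 ± 0.403 CPM in the 3 LFLS livers of number 2 and 8.33 ± 1.86 CPM in the 4 of number 1 (SD). Gcgr averaged 206 ± 12.5 CPM in HFHS livers of number 2 and 232 ± 21.4 CPM in those of number 1, and on LFLS 196 ± 9.44 CPM in number 2 and 288 ± 72.7 CPM in number 1. A term for a diet difference that depends on the title number was called (edgeR quasi-likelihood, Benjamini-Hochberg) in 0.883% of genes and in 0 of these 9, of which 3 had an unadjusted p under 0.05. Adcy4 came nearest, with 0.86 ± 0.26 on the log2 scale (adjusted p = 0.0899). In simulated counts that test recovered 61% of 4-fold differences and 9.18% of 2-fold ones over 17063 genes, so smaller differences could be missed. The simulated spread came from a fit with diet alone and so held the title number difference, and recovery in the real counts may differ.

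Adcy1 went the other way, with a log2 fold change of 0.92 ± 0.34 for number 2 over number 1 that missed the threshold (adjusted p = 0.0526). In LFLS livers it averaged 3.09 ± 1.70 CPM in number 2 and 1.46 ± 0.639 CPM in number 1, and in HFHS livers 0.468 ± 0.231 CPM in number 2 and 0.322 ± 0.0839 CPM in number 1 (SD). The exon GC content of the 9 genes, 52.4% to 59.5%, was above the median of 49.4% over 16351 tested genes, and the libraries differed in how their levels followed GC content. The correlation across genes between GC content and a library's deviation from its diet mean was -0.50 to -0.37 in LFLS livers of number 2 and 0.08 to 0.55 in those of number 1, and in HFHS livers it was -0.29 to 0.06 in number 2 and -0.03 to 0.19 in number 1. Genes are not independent replicates in such a correlation.

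With offsets for GC content and exon length in each library, edgeR called 3 of the 9 genes between title numbers, where 14.1% of all tested genes were called. The log2 fold change of Adcy5 became -0.49 ± 0.12 (adjusted p = 0.0188), that of Adcy4 -0.45 ± 0.13 (adjusted p = 0.0401) and that of Adcy1 1.12 ± 0.35 (adjusted p = 0.0461). Adcy3 (-0.27 ± 0.12, adjusted p = 0.146) and Gcgr (-0.06 ± 0.08, adjusted p = 0.659) were then not called. The diet differences of Adcy1 (-2.38 ± 0.45) and Adrb3 (-1.06 ± 0.26) moved little under the same offsets, while those of Adcy6 and Adcy9 became 0.18 ± 0.10 and -0.15 ± 0.11.

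**Figure D4:**
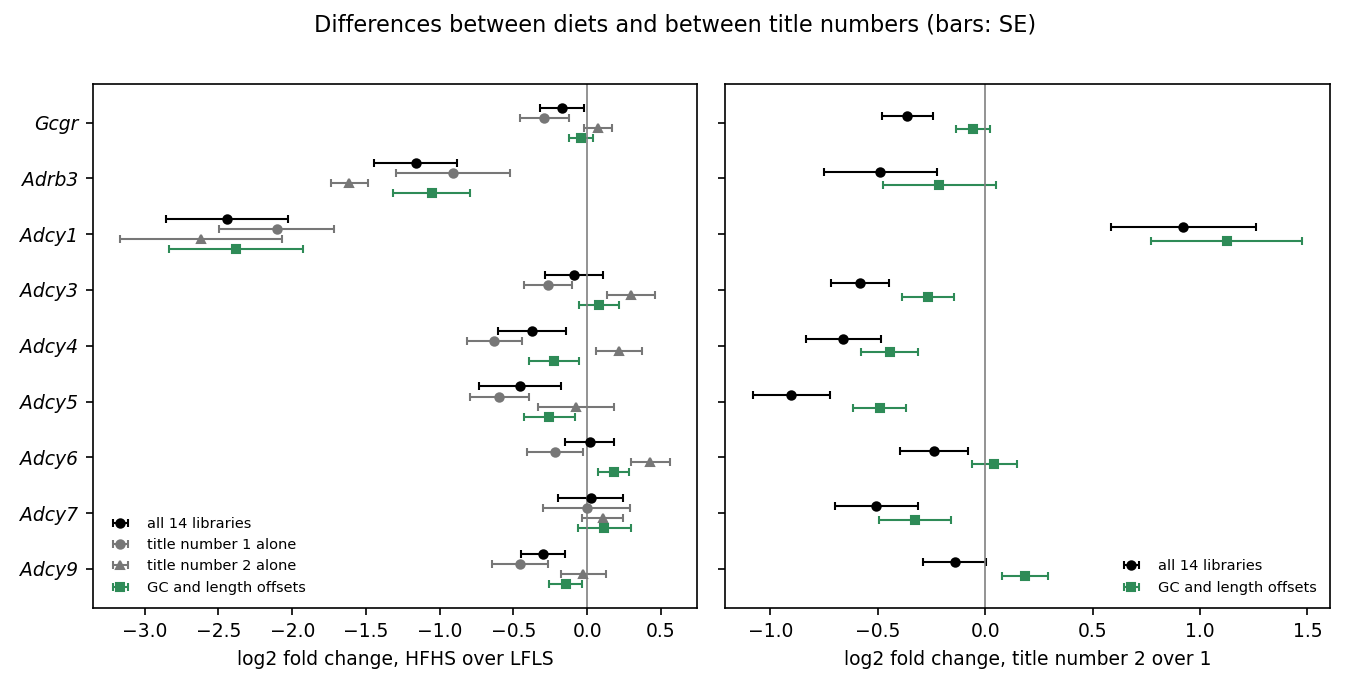
Left, log2 fold change of each gene, HFHS over LFLS, from all 14 libraries, from each title number alone and with GC and length offsets. Right, title number 2 over 1, with bars as SE in both panels; Adcy1 and Adrb3 lie left of 0 in every diet fit, and in the right panel Adcy1 lies farthest to the right.

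From mouse to mouse within a diet, most of these genes varied together. Over the 14 libraries, on log2 CPM centred within each diet, Adcy6 and Adcy9 had a Pearson r of 0.93 and Adcy4 and Adcy5 one of 0.89, the pair whose promoters are printed above. Gcgr followed Adcy4 (0.81), Adcy5 (0.78) and Adcy3 (0.70), with Spearman values of 0.74, 0.69 and 0.75. For Gcgr and Adcy6 the Pearson r was 0.70 and the Spearman value 0.37. Adcy1 was negatively related to every other gene of the group, from -0.64 with Adcy6 and with Adcy9 to -0.16 with Adcy7, and Adrb3 was loosely tied, from -0.36 with Adcy1 to 0.58 with Gcgr. The points share libraries, their title numbers and their GC response, so these are descriptions.

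The genes most alike to each in the same measure were named by rank among all tested genes. For Gcgr they were Psmg3 (0.99), Taf6 (0.97) and Cog2 (0.97), for Adrb3 Ptma (0.91), Prpf40b (0.91) and Nuak2 (0.89), and for Adcy1 2310008H04Rik (0.89), Ctsl (0.88) and Gmeb2 (0.86). For Adcy6 they included Cdc42bpg (0.97) and Galk1 (0.97), for Adcy9 they were D2hgdh (0.96), Dgat2 (0.96) and Aldh4a1 (0.96), and for Adcy5 C330006K01Rik (0.98), Zyx (0.97) and Ulk1 (0.97). Adcy4 was most like Gm15915 (0.96), Gtf3c5 (0.96) and Prkd2 (0.95), Adcy7 like Col6a2 (0.97), Pkm2 (0.97) and Gpr4 (0.96), and Adcy3 like Gm17560 (0.93), Ipo13 (0.93) and Jrk (0.93). Among 17223 genes over 14 points, high values arise for some gene in any case.

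Around the cyclases, 12 lists of pathway genes held 248 symbols, of which 173 were tested. By diet 5 of the 173 were called, all lower on HFHS, which is 2.89% against 2.81% of all tested genes, with a median log2 fold change of -0.03. In the 8 tested lists without a call, covering 107 genes, edgeR's quasi-likelihood test gave 16 genes an unadjusted p under 0.05, DESeq2 called 4 and limma voom called 9. Over all 17223 tested genes the corresponding counts were 3378, 1258 and 3274. The 8 lists were the other stimulatory receptors (16 genes tested), inhibitory receptors (13), G protein subunits (18), receptor desensitisation (18), protein kinase A (10), its anchoring proteins (12), cAMP phosphodiesterases (15) and other cAMP effectors (5).

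Among the receptors and G proteins, Gpr12, an orphan receptor that raises cAMP, averaged 1.81 ± 0.782 CPM in HFHS livers and 0.804 ± 0.374 CPM in LFLS livers, and its log2 fold change of 1.20 ± 0.32 missed the threshold (adjusted p = 0.0548). Calcrl, the receptor of adrenomedullin and CGRP, had 0.51 ± 0.20 (adjusted p = 0.171). Among the inhibitory receptors Sstr2, for somatostatin, had -0.46 ± 0.23 (adjusted p = 0.287), and the G protein gamma subunits Gng10 and Gng2 had 0.44 ± 0.15 and 0.51 ± 0.18 (adjusted p = 0.133 and 0.139). All are log2 fold changes tested with edgeR's quasi-likelihood test.

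Downstream of the receptors, Rgs3, which speeds the switching off of G proteins, averaged 10.2 ± 2.31 CPM on HFHS and 21.0 ± 10.8 CPM on LFLS, with a log2 fold change of -1.05 ± 0.28 (adjusted p = 0.0530). Rapgef4, the cAMP-activated exchange factor Epac2, averaged 157 ± 48.0 CPM on HFHS and 311 ± 150 CPM on LFLS, with -0.99 ± 0.28 (adjusted p = 0.0681). The pericyte gene Rgs5 had 0.48 ± 0.15 (adjusted p = 0.102) and the channel gene Hcn3 0.48 ± 0.21 (adjusted p = 0.210). Both protein kinase A inhibitors, Pkia and Pkib, had positive estimates, 0.67 ± 0.23 and 0.52 ± 0.23 (adjusted p = 0.115 and 0.224).

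The anchoring proteins Akap7 and Akap13 had 0.48 ± 0.14 and -0.23 ± 0.10 (adjusted p = 0.0747 and 0.230). The phosphodiesterases, which break down cAMP, were led by Pde1a at 0.54 ± 0.18 and Pde4b at -0.24 ± 0.15 (adjusted p = 0.111 and 0.376). None of these genes passed edgeR's quasi-likelihood test of diet without a block. With the title number as block, that test called Akap7 (adjusted p = 0.0131) and Pde1a (adjusted p = 0.0166). Of the genes named before them it then called Gpr12, Rapgef4 and Rgs3 (adjusted p = 0.00508, 0.0196 and 0.0256). The block fit called 8.94% of all tested genes.

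The 5 calls were in the CREB, glucagon and calcium lists. All the lists were chosen with earlier results of these data known, so their counts and p-values describe them. In the list of CREB family genes and coactivators 3 of 17 were called lower, against 1.44% of all tested genes, and 0 higher, with a median of -0.28 and 12 of 17 lower by estimate. With library totals alone, without a filter or with the title pairs as block 1 was called. Sik3, a salt-inducible kinase that holds CREB coactivators in the cytoplasm, fell to 60.7 ± 3.97 CPM in HFHS livers, against 89.1 ± 6.33 CPM in LFLS livers (SD, n = 7 each), a log2 fold change of -0.55 ± 0.07 (edgeR adjusted p = 0.00169). The 7 HFHS livers, at 55.1 to 67.7 CPM, lay below the 7 LFLS livers, at 83.2 to 101 CPM, and the call held without each mouse in turn and within each title number. Crebbp and Ep300, the related acetyltransferases that CREB recruits, fell by 0.45 ± 0.10 and 0.28 ± 0.07 on the log2 scale (edgeR adjusted p = 0.0331 and 0.0475).

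Those 2 calls were close to the threshold. Crebbp averaged 22.4 ± 0.962 CPM on HFHS and 30.6 ± 5.32 CPM on LFLS, and its call held in 4 of 14 fits without 1 mouse, those without LFLS 1, LFLS 5, LFLS 6 or LFLS 7, and was lost with library totals alone, without a filter, with the pair block and in title number 2 alone. Its diet difference was -0.12 within title number 2 and -0.64 within title number 1, and that difference of 0.53 was called by edgeR (adjusted p = 0.0418), but in only 3 of 14 fits without 1 mouse, those without LFLS 1, LFLS 4 or HFHS 1, and not with GC and length offsets (0.29, adjusted p = 0.238). Ep300 averaged 42.0 ± 2.86 CPM on HFHS and 51.1 ± 3.52 CPM on LFLS, and its call held in 2 of 14 such fits, those without LFLS 1 or LFLS 6. It was also lost with GC and length offsets, with library totals alone, without a filter, with the pair block, in either title number alone and with 1 subtracted from every count.

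Among 29 tested genes known to respond to glucagon or cAMP, 1 was called lower on HFHS, against 1.44% of all tested genes, and 0 higher. The list had a median log2 fold change of -0.48, with 23 of 29 lower by estimate. The called gene was Irs2, the insulin receptor substrate that CREB induces in fasting. Irs2 fell to 13.5 ± 3.55 CPM in HFHS livers, against 30.3 ± 9.20 CPM in LFLS livers (SD, n = 7 each). The log2 fold change was -1.17 ± 0.20 (edgeR adjusted p = 0.00943), and the ranges of 6.95 to 18.2 CPM on HFHS and 21.9 to 49.1 CPM on LFLS did not overlap. The call held without each mouse in turn but not in title number 2 alone (-1.19, edgeR adjusted p = 0.0707). With the title number in the model 6 of the 29 were called, where 8.94% of all tested genes were.

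Between title numbers the same list had 22 of 29 genes called, 19 higher and 3 lower in number 2, against 13.9% of all tested genes higher. With GC and length offsets 16 were called higher and 3 lower, against 7.91% of all tested genes higher and 6.21% lower. Chosen after their values were seen, Igfbp1, a fasting-induced binding protein of growth factors, had a log2 fold change of 1.99 ± 0.26 (edgeR adjusted p = 0.000491), Got1, an aspartate aminotransferase, 1.32 ± 0.16 (adjusted p = 0.000368) and Pck1, the key enzyme of gluconeogenesis, 0.84 ± 0.15 (adjusted p = 0.00232). In the same comparison the hepatocyte markers, which share Tat, Cps1 and Ass1 with that list, had 6 of 12 called higher in number 2. Called lower were 7 of 12 Kupffer cell and macrophage, 6 of 12 endothelial and 4 of 12 stellate cell and fibroblast markers. Of all tested genes 14.8% were called lower in number 2. The part of cell makeup in these differences was not tested.

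The calcium and calmodulin list had 1 of 20 genes called lower on HFHS, against 1.44% of all tested genes, and 0 higher. The called gene was Itpr2, the main calcium release channel of the hepatocyte endoplasmic reticulum. It fell to 37.3 ± 3.48 CPM in HFHS livers, against 51.9 ± 7.27 CPM in LFLS livers (SD, n = 7 each), a log2 fold change of -0.48 ± 0.10 (edgeR adjusted p = 0.0187). The call was lost without HFHS 2 and in title number 2 alone, and the difference was -0.21 within title number 2 and -0.65 within title number 1. By diet limma voom called 9 of the 20 genes of this list, and 3274 of all 17223 tested genes.

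**Figure D5:**
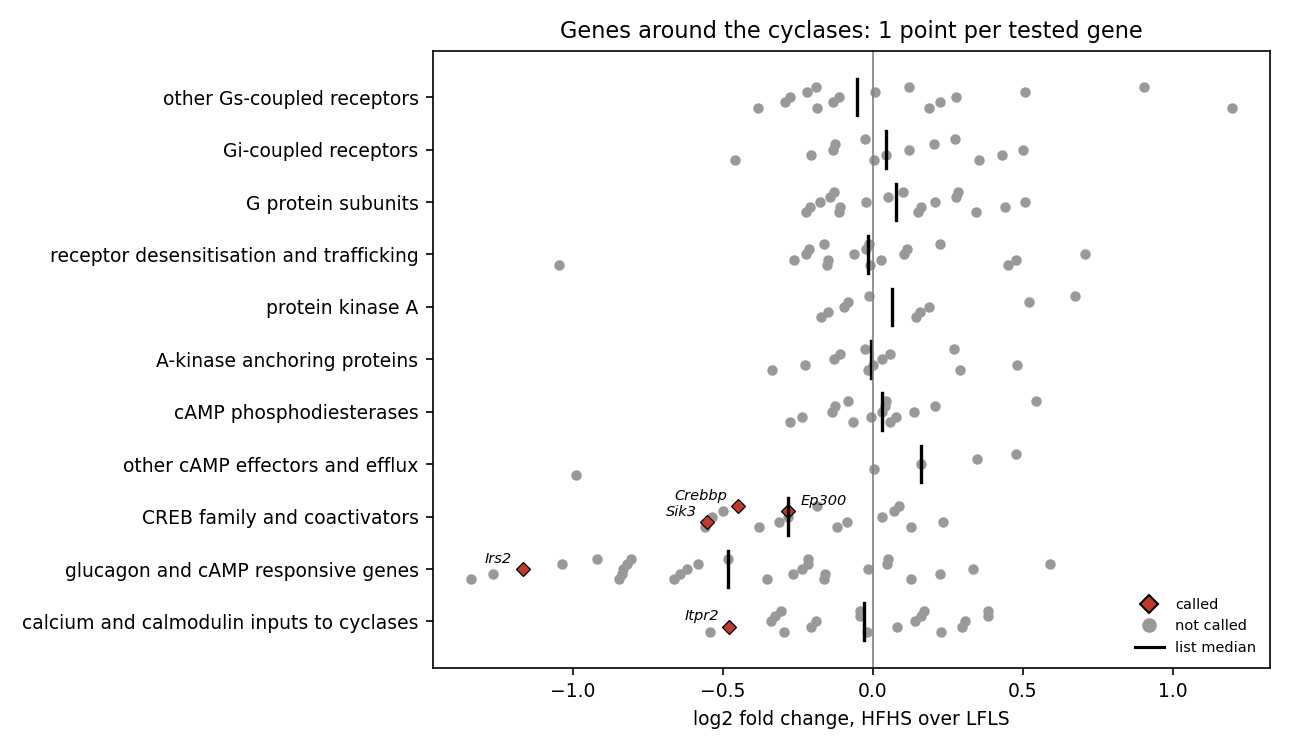
Log2 fold change, HFHS over LFLS, of each tested gene in 11 pathway lists, with red diamonds for called genes and black bars for list medians. The 5 called genes, Sik3, Crebbp, Ep300, Irs2 and Itpr2, all lie left of 0, and the medians of the CREB list and the glucagon and cAMP list, -0.28 and -0.48, lie lowest.

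Among the cell type markers, Ighm, the immunoglobulin heavy chain of B cells, was higher on HFHS by 0.96 on the log2 scale (edgeR adjusted p = 0.0354). The other 6 of 7 tested B cell markers were not called. Of the 7, 4 were higher and 3 lower on HFHS by estimate, with a median log2 fold change of 0.10. Without 1 mouse in turn, Ighm was called in 4 of 14 fits, those without LFLS 1, LFLS 6, HFHS 3 or HFHS 4. The 12 exocrine pancreas markers summed to 16.0 to 438 CPM in HFHS livers and 18.6 to 1632 CPM in LFLS livers, with the highest value in LFLS 2. The only marker at the lowest count in every library was Th.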

How the data were processed

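The members and gene lists were chosen with earlier results of these data known. Polyadenylated liver RNA of 14 mice was sequenced as single reads, per the labels' protocols, and the submitters' processing notes name CASAVA 1.8, TopHat, Bowtie, DESeq and the mouse build mm9. The authors' deposited counts are whole numbers per gene, never below 1, and 11120 of 37681 genes stood at 1 throughout. The authors' deposited results table gives signal values, which are means of counts divided by size factors. It also gives their fold ratio, its log2 and the DESeq p-value and adjusted p-value, per the file headers. That table supplied gene names and the values credited to it.

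The test of counts was that of edgeR 4.0.16 (R 4.3.3; TMM scaling, edgeR's filter by diet, quasi-likelihood F test, Benjamini-Hochberg adjustment over 17223 genes). Each mouse gave 1 library, so p-values reflect spread between animals. SE is the log2 fold change divided by the square root of F. Log2 CPM used a prior count of 2. The p of a title number difference came from a model with diet as covariate. Tested on simulated counts, the diet test recovered 78% of 2-fold and all of the 4-fold changes over 17083 genes, and the title number test 71% of 2-fold changes over 17096 genes. Spread in these simulations was estimated with diet alone, so recovery by the title number test in the real counts may differ. Exon length, GC content (for 94.9% of tested genes) and overlaps came from GENCODE on GRCm38, another build than that of the counts, so no gene coordinates from it are given, and promoters came from RefSeq. Named were the 9 members, each called gene of a pathway list (at most 6) or else the 2 of smallest p, called markers (at most 3 a list), and the 3 genes most alike to each member. DESeq2 1.42.0 and limma 3.58.1 were among the alternatives, with other scalings, filters, blocks, GC and length offsets, each title number alone, 1 subtracted from every count, and each mouse left out. A few named genes are not reported here.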

Additional observations from a re-analysis of the deposited data

Results flagged for a closer look

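Single livers stood far from the other 6 of their diet in 10 of 46 groups examined, where chance gives about 1 in 20. Among the genes described, these were Adcy1 in HFHS 6 at 0.723 CPM, Adcy7 in HFHS 1 at 11.9 CPM, Adrb3 in LFLS 1 at 19.2 CPM and Gcgr in LFLS 1 at 396 CPM. Adcy2, below the filter, stood out in LFLS 2 at 1.23 CPM, and the summed exocrine pancreas markers were also highest there, at 1632 CPM. HFHS 1 stood out for summed endothelial (655 CPM), stellate cell and fibroblast (871 CPM) and bile duct markers (165 CPM), and LFLS 5 for bile duct markers (90.1 CPM).

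The diet difference of the coactivator Crebbp differed between title numbers by 0.53 on the log2 scale (edgeR quasi-likelihood test of the difference, adjusted p = 0.0418). It was called in 3 of 14 fits without 1 mouse (without LFLS 1, LFLS 4 or HFHS 1) and not with GC and length offsets (0.29, adjusted p = 0.238).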

How the results depend on the processing

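Diet calls (484) became 1258 with DESeq2, 3274 with limma voom, 173 without a filter, 1540 with the title number as block, 1228 with that block and GC and length offsets, 1484 in title number 1 alone, 269 in title number 2 alone and 133 to 853 without 1 mouse, with 133 reached without HFHS 2. Leaving out any mouse but LFLS 1, LFLS 5, HFHS 3 or HFHS 4 moved that count by over 1.5 times. Title number calls (4953) became 2433 with the offsets and 2778 to 5514 without 1 mouse. Interaction calls (152) became 4 with the offsets and 0 to 1267 without 1 mouse, with 0 reached without HFHS 5. The offsets and single-mouse fits of the interaction, and the offsets of the title number, were chosen after seeing the data. The 5 diet calls among pathway genes became 15 (DESeq2), 27 (voom), 3 (no filter), 19 (title number block), 11 (pair block), 8 (offsets), 16 (offsets and block), 18 and 10 (title number 1 and 2 alone) and 2 to 7 without 1 mouse. The ratio of Gcgr to Adcy6, 9.86 per kb, was 3.81 in plain CPM. The cause of these shifts was not tested.

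Adcy1 and Adrb3 kept their sign in all settings. Adcy1 was not tested at 1 CPM in 7 libraries, and the call of Adrb3 was also lost without a filter and in title number 1 alone (-0.91). Signs turned for diet values that were not called: Adcy3 (0.0813 with offsets, 0.0893 with offsets and block, 0.30 in title number 2), Adcy4 (0.22) and Gcgr (0.0747) in title number 2, Adcy6 (-0.0212 unfiltered, -0.22 in title number 1, -0.0466 to 0.18 without 1 mouse) and Adcy7 (-0.16 by voom, -0.00298 unfiltered, -0.0362 with the pair block, -0.00259 in title number 1, -0.23 to 0.11 without 1 mouse). Between title numbers they turned for Adcy6 (0.0427 with offsets) and Adcy9 (0.00844 by voom, 0.19 with offsets). With library totals alone the median title number difference of all genes was -0.16, against -0.03. Titles form 7 pairs across diets by their letters, whose deviations correlated at -0.07 to 0.41. Of these pairs 4 of 7 were above 0.1, and 3 of 7 HFHS libraries were closest to their own pair. Whether the letters mark real pairs was not tested. With the pairs as replicate block 598 genes were called, and neither block changed the call of a member. Few counts limit Adcy1.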
